A study of Mus musculus with 9 samples.

Results

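The integrated stress response and the unfolded protein response are covered here by 36 named genes, of which 34 had a row among the 12204 genes of the expression table. Chac1 and Phgdh had no row and are not analysed here. The list was drawn up with earlier results of these data known, and its genes were found in the table by matching Ensembl identifiers to symbols. They fall into an ATF4 arm (12 of 14 genes listed), an endoplasmic reticulum (ER) arm of 18 genes with 14 chaperones and folding factors and 4 degradation genes, and a group of 4 with the sensors Eif2ak3, Atf6 and Ern1 and the factor Xbp1. The cells were bone marrow-derived macrophages of C57/Bl6J mice, grown for 6 days with 20% L929 supernatant. Groups of 3 libraries each were untreated, given lipopolysaccharide (LPS, a Toll-like receptor 4 ligand) at 10 ng/ml for 4 h, or given BMS303141, an inhibitor of ATP-citrate lyase, at 50 µM for 1 h before the same LPS dose. All came from a single strain, no group received the inhibitor alone, and a vehicle is not named in the labels.

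In the integrated stress response, kinases that sense ER stress, amino acid shortage, double-stranded RNA or heme shortage phosphorylate the translation factor eIF2. Bulk protein synthesis then slows while the messenger RNA of ATF4 is translated better, and ATF4 switches on genes for amino acid synthesis, folate metabolism and feedback. In the unfolded protein response the ER membrane sensors PERK (Eif2ak3), IRE1 (Ern1) and ATF6 detect unfolded protein. PERK feeds into ATF4, whereas ATF6 and the spliced form of XBP1 raise chaperones and degradation factors of the ER. In macrophages, Toll-like receptor signalling is known to engage parts of both responses. The 3′ reads used here give transcript levels only, not ATF4 translation, Xbp1 splicing or protein.

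Estimated depth on listed genes was 3.22 to 5.05 M (mega) reads in untreated libraries, 1.83 to 3.19 M with LPS and 3.56 to 3.74 M with BMS303141 and LPS. LPS replicate 1 was the shallowest and stood apart. The SD of its gene-wise differences was 0.81 and 0.75 against LPS replicates 2 and 3, which differed from each other by 0.60 (log2). Whether replicates were separate animals or dishes is not in the labels, and every p-value here reflects the spread among these 9 libraries alone, which may be technical. All 8 macrophage markers were listed, Lyz2 (lysozyme) being the most abundant at 12.28 log2 CPM in untreated cells. Their summed level was 8007 to 8683 CPM in untreated libraries, 3987 to 4866 with LPS and 4746 to 4830 with the inhibitor and LPS. They did not all move alike with LPS, where limma called 6 lower and 1 higher, beside 25.4% and 21.5% of all tested genes. Their log2 changes ran from -4.14 to 1.80. Of 7 neutrophil markers only S100a8 and S100a9 were listed, at a sum of 7.81 to 29.6, 33.9 to 60.9 and 172 to 264 CPM in the same order, led by S100a8. Of 4 plasma cell markers, cells in which XBP1 is prominent, Prdm1 and Sdc1 were listed, at 40.1 to 51.0, 114 to 159 and 143 to 189 CPM, while Jchain and Mzb1 had no row. The single listed mast cell marker of 3, Hdc, stood at 2.21 to 2.59, 106 to 118 and 60.5 to 77.2 CPM. Listed markers of dendritic cells (Itgax, 1 of 4), lymphocytes (Lck, 1 of 7), stroma (4 of 4, led by Sparc) and endothelium (Kdr, 1 of 2) summed to at most 23.7 CPM per list in any library, and no erythroid marker of 3 was listed. The part of these markers in the results was not tested. In bulk RNA, fewer cells of a type and less RNA per cell cannot be told apart. Ribosomal protein transcripts took 1.86% to 1.95% of the listed CPM in untreated libraries, 1.45% to 1.51% with LPS and 1.46% to 1.52% with the inhibitor and LPS.

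The first comparison asked what LPS did to the 34 members. The ATF4 arm rose and most called chaperones of the ER arm fell. With limma, 12 members rose and 10 fell, beside 21.5% of the 12196 tested genes called higher and 25.4% called lower. In the ATF4 arm 10 of 12 members rose and 1 fell, and in the ER arm 2 of 18 rose and 7 fell. Eif2ak3 and Atf6 fell, and neither Ern1 nor Xbp1 was called. At least 2-fold rises were made by 7 members of the ATF4 arm and 1 of the ER arm, beside 12.8% of all genes. No ER arm member fell 2-fold, beside 14.3% of all genes. Levels of the groups did not overlap for 12 members that were higher and 11 that were lower, beside 23.7% and 28.9% of all genes.

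Among transcription factors of the ATF4 arm, Nupr1 (ENSMUSG00000030717, chromosome 7, 126623249 to 126630861 in GRCm38, minus strand) changed most. It encodes a small stress-induced nuclear protein that binds other transcription regulators. Its levels were 3.27, 2.43 and 2.68 log2 CPM in the untreated libraries, 7.50, 6.91 and 7.23 with LPS and 7.38, 7.06 and 7.34 with BMS303141 and LPS. Every library with LPS lay far above every untreated library, and the treated groups overlapped. The rise with LPS was 4.42 on the log2 scale (SE 0.21), or 21.4-fold (limma, adjusted p = 1.32e-09). Atf4 itself stood at 7.98, 8.21 and 8.29 log2 CPM untreated, at 9.13, 8.46 and 8.98 with LPS and at 9.20, 8.91 and 9.33 with the inhibitor and LPS. All LPS libraries were above all untreated ones, LPS replicate 2 only narrowly. Atf4 rose by 0.70 (SE 0.16), or 1.62-fold (limma, adjusted p = 0.00343).

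Atf5, a relative of Atf4 whose translation is controlled in a similar way, was at 5.60, 5.94 and 6.44 log2 CPM untreated and at 7.12, 6.64 and 7.13 with LPS. The groups did not overlap, and the rise was 0.97 (SE 0.20), or 1.96-fold (limma, adjusted p = 0.00129). Ddit3 went the other way. It encodes CHOP, a factor linked to cell death under lasting ER stress, and it was at 6.87, 6.80 and 6.93 log2 CPM untreated and at 6.55, 5.98 and 5.97 with LPS. All 3 LPS libraries lay below the untreated ones, with LPS replicate 1 the least lowered. Ddit3 fell by 0.70 on the log2 scale (SE 0.16; limma, adjusted p = 0.00348), and with centring on abundant ribosomal protein genes the change was -0.55 and not called. Its last 1000 bases are overlapped by Mars on the opposite strand, so its value is uncertain if strand was not used in counting.

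ATF4 target genes form the largest block of rises, with 7 of 8 called higher, beside 21.5% of all tested genes. Their median was 2.20, against -0.06 over all tested genes. Mthfd2, an enzyme of mitochondrial folate metabolism, was at 4.43, 4.83 and 4.99 log2 CPM untreated, at 7.25, 6.93 and 7.34 with LPS and at 6.75, 6.75 and 7.17 with the inhibitor and LPS. Its untreated and LPS libraries were far apart, and it rose 5.38-fold with LPS (log2 2.43, SE 0.17; limma, adjusted p = 9.06e-08). Asns, which makes asparagine from aspartate, was at 1.15, 2.51 and 2.46 log2 CPM untreated, at 4.19, 4.07 and 4.75 with LPS and at 4.04, 4.15 and 4.14 with the inhibitor and LPS. Untreated replicate 1 was lower than the other two, and the groups with and without LPS did not overlap. Asns rose 4.91-fold (log2 2.30, SE 0.33; limma, adjusted p = 6.69e-05).

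Psat1, an aminotransferase of serine synthesis, was at 2.07, 1.83 and 2.07 log2 CPM untreated, at 3.65, 3.27 and 3.68 with LPS and at 3.43, 3.71 and 4.01 with the inhibitor and LPS. Both treated groups were clear of the untreated libraries, and the LPS rise was 2.91-fold (log2 1.54, SE 0.24; limma, adjusted p = 0.000124). Shmt2, which passes one-carbon units from serine to folate in mitochondria, was at 2.76, 2.89 and 2.75 log2 CPM untreated and at 3.43, 3.17 and 3.61 with LPS. The rise of 0.60 (SE 0.23; limma, adjusted p = 0.0458) lay just under the threshold, and leaving out 1 library ended the call in 7 of 9 fits, with an adjusted p of up to 0.153. It was also not called with only the groups compared (limma, adjusted p = 0.0652) or with centring on ribosomal protein genes (0.0624).

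The feedback genes of the arm rose as well. Ppp1r15a encodes GADD34, which directs a phosphatase to eIF2 and so ends the response, and it was at 2.95, 3.20 and 2.75 log2 CPM untreated, at 5.21, 5.77 and 5.33 with LPS and at 4.47, 4.90 and 4.31 with the inhibitor and LPS. The 3 groups did not overlap, with LPS alone highest, and the LPS rise was 5.52-fold (log2 2.47, SE 0.21; limma, adjusted p = 5.83e-07). Trib3, a pseudokinase that restrains AKT and ATF4, was at 0.30, 0.25 and 0.64 log2 CPM untreated, at 2.68, 1.81 and 3.02 with LPS and at 2.95, 2.42 and 3.24 with the inhibitor and LPS. Its untreated values rest on about 5 to 7 reads a library, and LPS replicate 2 was the lowest of the treated libraries. Trib3 rose by 2.11 on the log2 scale (SE 0.37; limma, adjusted p = 0.000418).

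Ddit4 encodes REDD1, an inhibitor of the growth kinase mTORC1. It was at 0.02, -0.79 and 0.85 log2 CPM untreated, at 1.48, 3.17 and 3.35 with LPS and at 4.02, 4.21 and 4.07 with the inhibitor and LPS. The 3 groups formed a ladder without overlap, although LPS replicate 1 was well below its partners and the untreated values rest on about 2 to 6 reads. The LPS rise was 2.64 (SE 0.49; limma, adjusted p = 0.000632), and it was 3.23 without LPS replicate 1. Sesn2, which helps restrain mTORC1 when leucine is short, was at 2.88, 3.56 and 3.85 log2 CPM untreated and at 3.43, 3.85 and 4.19 with LPS. These groups overlapped, and their means were 0.39 apart (95% interval -0.17 to 0.96), which was not called (limma, adjusted p = 0.239). With library weights the difference of Sesn2 was 0.61 and called (limma, adjusted p = 0.0151), and leaving out 1 library gave 0.12 to 0.60, never called.

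**Figure D1:**
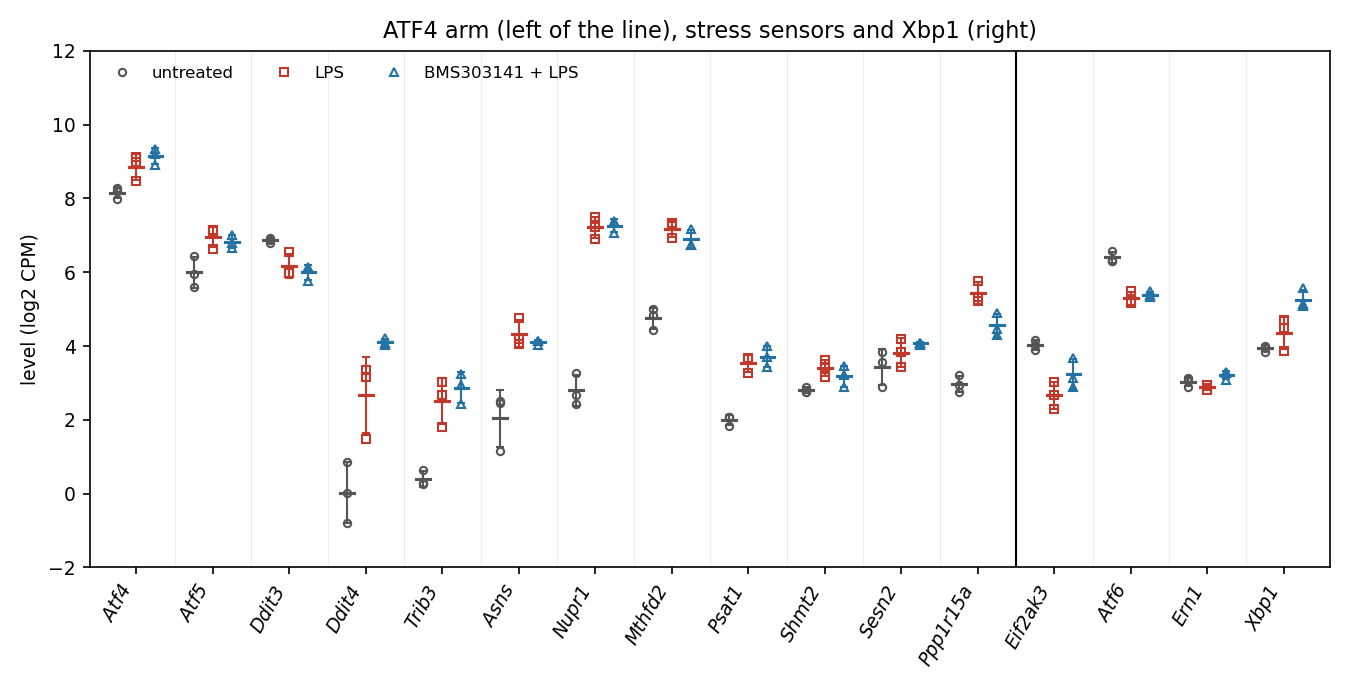
Levels of the 12 listed ATF4 arm members, and to the right of the line the sensors and Xbp1, in log2 CPM on the y axis. Each point is a library (3 per group), with bars for the group mean and SD; for Nupr1, Mthfd2 and Ppp1r15a every LPS library lies well above every untreated one, while Atf6 and Eif2ak3 lie lower with LPS.

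Promoters were searched for motifs of the factors that act in each arm. RefSeq (GRCm38.p6) gave a window from 250 bases before to 50 after the start site for 31 of the 34 members, 12 of them in the ATF4 arm and 16 in the ER arm; Atf6, Hyou1 and Manf had no entry. Both strands were read for TGATGNAA (the C/EBP-ATF response element, bound by ATF4 with a C/EBP partner), TGACGTCA (the cAMP response element), TGACGTG (the core of the unfolded protein response element) and CCAAT followed after 9 bases by CCACG (the ER stress response element, bound by ATF6 with NF-Y). No 2 different motifs overlapped in a member. A match describes these letters and is no evidence of binding. TGATGNAA was found in 3 of 12 ATF4 arm promoters, Trib3, Asns and Nupr1, in 1 of 16 ER arm promoters, Herpud1, and in 2.79% of the 8171 genes of the table with a promoter (3.97% of all 32851 promoters). TGACGTCA was found in Ppp1r15a alone of the members and in 3.81% of those genes (1.79% of all promoters). The 250 bases before the start site are shown for the ATF4 arm members with a motif that changed most with LPS, 5′ to 3′ along the gene, with the motif in capitals; in Nupr1 it lies on the other strand.
Nupr1 (chr7:126625471-126625720, minus strand): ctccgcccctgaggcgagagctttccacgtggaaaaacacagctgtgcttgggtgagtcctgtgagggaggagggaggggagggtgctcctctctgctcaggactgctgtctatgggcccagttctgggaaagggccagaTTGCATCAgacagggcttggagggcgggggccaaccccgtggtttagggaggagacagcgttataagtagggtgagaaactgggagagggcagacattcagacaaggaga
Ppp1r15a (chr7:45526269-45526518, minus strand): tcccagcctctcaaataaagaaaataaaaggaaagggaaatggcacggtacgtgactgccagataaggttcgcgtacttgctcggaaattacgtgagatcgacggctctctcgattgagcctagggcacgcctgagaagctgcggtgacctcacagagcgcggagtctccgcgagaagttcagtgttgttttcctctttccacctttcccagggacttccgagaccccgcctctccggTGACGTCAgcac
Asns (chr6:7693210-7693459, minus strand): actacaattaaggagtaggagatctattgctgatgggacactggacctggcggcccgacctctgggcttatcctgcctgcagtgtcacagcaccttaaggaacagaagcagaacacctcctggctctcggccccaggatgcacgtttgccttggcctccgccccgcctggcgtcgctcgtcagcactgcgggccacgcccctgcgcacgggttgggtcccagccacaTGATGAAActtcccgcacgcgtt
In these promoters the motif began 110, 12 and 23 bases before the start site, respectively.

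Of the ER membrane sensors, 2 fell with LPS. Atf6 was at 6.58, 6.31 and 6.31 log2 CPM untreated, at 5.17, 5.49 and 5.22 with LPS and at 5.32, 5.37 and 5.48 with the inhibitor and LPS. Every treated library was below every untreated one, and the fall with LPS was by 1.11 on the log2 scale (SE 0.14; limma, adjusted p = 2.11e-05). Eif2ak3, which encodes the eIF2 kinase PERK, was at 4.17, 3.88 and 4.02 log2 CPM untreated, at 2.68, 2.30 and 3.02 with LPS and at 2.89, 3.13 and 3.68 with the inhibitor and LPS. It was lower in all treated libraries and fell by 1.36 with LPS (SE 0.26; limma, adjusted p = 0.000751). Ern1, the kinase and RNase IRE1, stayed between 2.80 and 3.28 log2 CPM in all 9 libraries, with an LPS difference of -0.13 (limma, adjusted p = 0.645) that was 0.02 with centring on abundant ribosomal protein genes.

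Xbp1, the target of IRE1's RNase (ENSMUSG00000020484, chromosome 11, 5520659 to 5525893, plus strand), was at 3.95, 4.01 and 3.85 log2 CPM untreated, at 3.87, 4.71 and 4.50 with LPS and at 5.09, 5.56 and 5.13 with the inhibitor and LPS. LPS replicate 1 lay among the untreated libraries and the other two LPS libraries above them, while the libraries with the inhibitor were highest. The LPS difference of 0.42 (95% interval -0.05 to 0.89) was not called (limma, adjusted p = 0.134). Without LPS replicate 1 it was 0.66 and called (limma, adjusted p = 0.00863).

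In the ER arm, LPS lowered 7 of 14 chaperones and folding factors and raised 1, beside 25.4% and 21.5% of all tested genes. Their median change was -0.38, against -0.06 over all tested genes. Hspa5, which encodes BiP, the main ER chaperone and the protein that holds the sensors inactive, was the exception. It was at 10.68, 10.57 and 10.77 log2 CPM untreated, at 11.21, 10.91 and 10.91 with LPS and at 11.00, 11.00 and 11.05 with the inhibitor and LPS. The groups with and without LPS were apart by a small margin, and the rise was 1.26-fold (log2 0.34, SE 0.10; limma, adjusted p = 0.0164). It was not called without untreated replicate 2 (limma, adjusted p = 0.0825), without a mean trend (0.0751) or with centring on ribosomal protein genes (0.109), where the difference was 0.41.

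Calr, the lectin chaperone calreticulin, was at 9.99, 9.89 and 9.59 log2 CPM untreated, at 9.24, 8.83 and 8.97 with LPS and at 9.32, 9.18 and 9.23 with the inhibitor and LPS. The untreated libraries were all higher, and Calr fell by 0.81 with LPS (SE 0.13; limma, adjusted p = 0.000149). Canx, its membrane-bound partner calnexin, was at 9.35, 9.11 and 9.09 log2 CPM untreated and at 8.82, 8.76 and 8.72 with LPS. It fell by 0.42 (SE 0.10; limma, adjusted p = 0.00323). Pdia3, the disulfide isomerase that works with both lectins, was at 8.34, 8.26 and 8.30 log2 CPM untreated, at 7.46, 7.61 and 7.60 with LPS and at 7.44, 7.63 and 7.62 with the inhibitor and LPS. All 3 genes of this glycoprotein folding cycle were therefore lower in every LPS library than in any untreated one, and Pdia3 fell by 0.74 (SE 0.10; limma, adjusted p = 4.17e-05).

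Pdia4, another disulfide isomerase (ENSMUSG00000025823, chromosome 6, 47796141 to 47813430, minus strand), was at 6.46, 6.55 and 6.57 log2 CPM untreated, at 5.89, 5.86 and 5.76 with LPS and at 5.31, 5.36 and 5.26 with the inhibitor and LPS. The 3 groups were tight and fully apart, in descending order, and the fall with LPS was by 0.69 (SE 0.12; limma, adjusted p = 0.000267). Hsp90b1, the ER form of the HSP90 chaperone, was at 8.85, 8.82 and 8.80 log2 CPM untreated, at 8.38, 8.18 and 8.26 with LPS and at 8.55, 8.35 and 8.54 with the inhibitor and LPS. It fell by 0.55 (SE 0.10; limma, adjusted p = 0.000463), and its 3′ end is overlapped by 1810014B01Rik on the opposite strand. Dnajc3, a cochaperone of BiP that also inhibits PERK, changed by -0.51 (limma, adjusted p = 0.00934). Sdf2l1, an ER partner of J-domain cochaperones, was at 3.10, 3.00 and 3.56 log2 CPM untreated and at 2.54, 2.48 and 2.38 with LPS. Its fall by 0.76 (SE 0.28; limma, adjusted p = 0.0377) was not called in 4 of the 9 fits that left out 1 library, with an adjusted p of up to 0.142.

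Other folding factors were not called. Pdia6, a disulfide isomerase that binds BiP, differed by -0.22 (95% interval -0.54 to 0.10), Hyou1, the nucleotide exchange factor of BiP, by 0.02, and the J-domain cochaperones Dnajb11 and Dnajb9 by -0.08 and -0.33. Dnajb9 was spread widely, at 1.48, 3.00 and 1.15 log2 CPM in the LPS libraries. Creld2, a protein of the ER lumen made under stress, differed by 0.36 and Manf, a secreted ER stress factor that binds BiP, by 0.29. Manf was called without LPS replicate 1, at 0.51 (limma, adjusted p = 0.0221), and its 3′ end is overlapped by Dcaf1 on the opposite strand.

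Of the 4 degradation genes, which serve to pull misfolded proteins out of the ER for the proteasome, Herpud1 was the single call. Herpud1 (ENSMUSG00000031770, chromosome 8, 94386438 to 94395377, plus strand) organises the membrane complex for this step, and it was at 3.31, 3.15 and 3.72 log2 CPM untreated, at 6.28, 6.39 and 6.44 with LPS and at 6.25, 6.44 and 6.61 with the inhibitor and LPS. Treated and untreated libraries were far apart, while the treated groups overlapped. It rose 7.87-fold with LPS (log2 2.98, SE 0.16; limma, adjusted p = 6.22e-09). Sel1l, the adaptor of the HRD1 ubiquitin ligase, was at 7.69, 7.60 and 7.66 log2 CPM untreated, at 7.44, 7.48 and 7.51 with LPS and at 7.30, 7.24 and 7.24 with the inhibitor and LPS. It stepped down without overlap between groups, but the LPS difference of -0.18 (95% interval -0.38 to 0.03) was not called (limma, adjusted p = 0.146).

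Syvn1, the HRD1 ligase itself, was at 2.36, 2.15 and 0.64 log2 CPM untreated, at -1.13, 3.22 and 3.22 with LPS and at 4.15, 4.42 and 2.95 with the inhibitor and LPS. LPS replicate 1 was at that library's lowest value while its partners were above all untreated libraries. The LPS difference of 0.06 (95% interval -1.94 to 2.05; limma, adjusted p = 0.967) turned into a called rise of 1.50 without that library (limma, adjusted p = 0.0193). The last 1000 bases of Syvn1 are overlapped by Mrpl49 on the opposite strand. Edem1, which takes misfolded glycoproteins to degradation, differed by 0.08 with LPS (limma, adjusted p = 0.733).

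**Figure D2:**
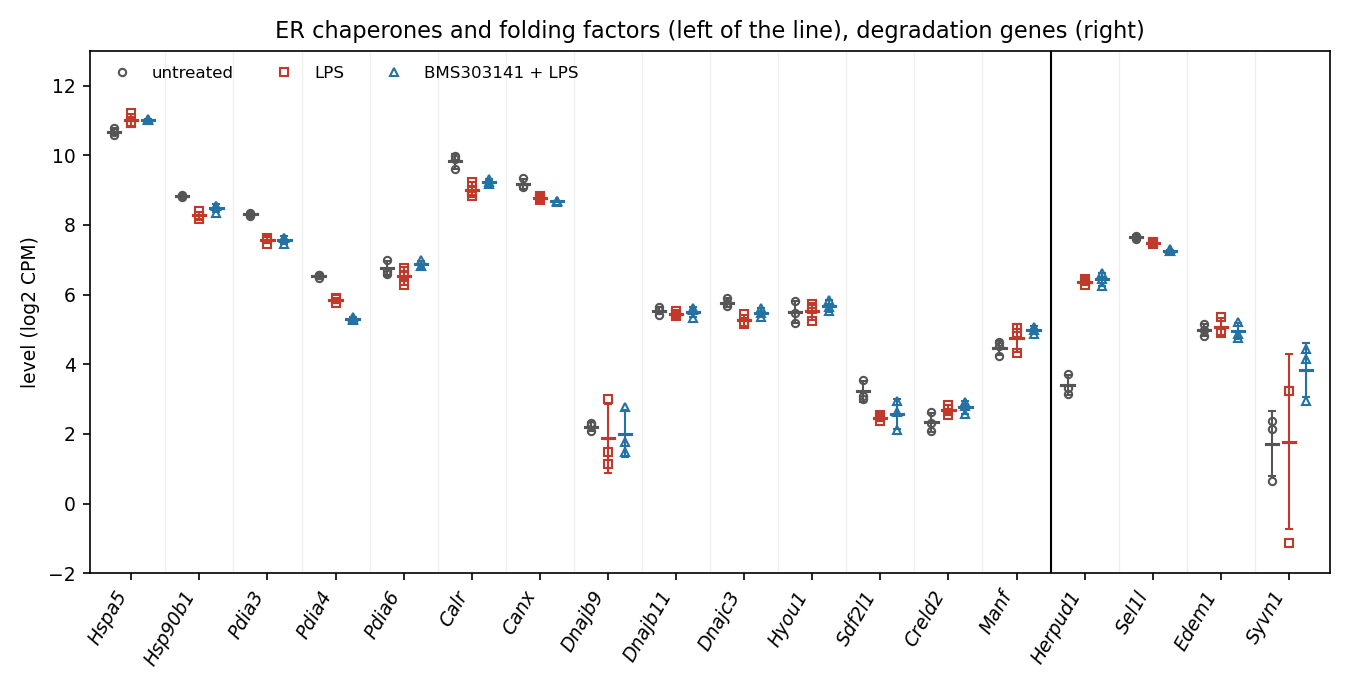
Levels of the 14 chaperones and folding factors, and to the right of the line the 4 degradation genes, in log2 CPM on the y axis. Each point is a library (3 per group), with bars for the group mean and SD; Calr, Pdia3 and Pdia4 lie lower with LPS and Herpud1 far higher, and the Syvn1 values with LPS span -1.13 to 3.22.

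In the ER arm the ER stress response element, in its full form with 9 bases between CCAAT and CCACG, was found in 8 of 16 promoters, those of Hspa5, Calr, Hsp90b1, Canx, Pdia6, Dnajc3, Creld2 and Syvn1, and in none of the 12 of the ATF4 arm. In the genes of the table with a promoter it was found in 12 of 8171, or 0.147% (0.119% of all promoters). The core TGACGTG was found in Hspa5 alone of the members, and in 3.44% of those genes (2.01% of all promoters). Of the 8 members with the element 4 fell with LPS, 1 rose and 3 were not called, beside 25.4% lower and 21.5% higher of all tested genes. The calls of Canx, Dnajc3 and Hspa5 were lost with either centring on ribosomal protein genes, and that of Hsp90b1 with centring on abundant ones. A link between the element and these changes was not tested. Herpud1, the ER arm member that rose most, held TGATGNAA and not this form of the element. It also held ATTGG followed after 1 base by CCACG, the second form of the ER stress response element, which was searched after the promoters had been seen. That form was found in 2 of 16 ER arm promoters, Herpud1 (52 bases before the start site) and Dnajb11 (7 bases after it), in none of the 12 of the ATF4 arm, and in 0.0857% of the genes of the table with a promoter (0.0365% of all promoters). TGATGNAA was not found in the windows of Mthfd2, Ddit4 and Psat1, which rose with LPS. The 250 bases before the start site of the ER arm members with a motif that changed most are shown, with motifs in capitals except the second form, to set Herpud1 beside 2 chaperones that fell.
Herpud1 (chr8:94386179-94386428, plus strand): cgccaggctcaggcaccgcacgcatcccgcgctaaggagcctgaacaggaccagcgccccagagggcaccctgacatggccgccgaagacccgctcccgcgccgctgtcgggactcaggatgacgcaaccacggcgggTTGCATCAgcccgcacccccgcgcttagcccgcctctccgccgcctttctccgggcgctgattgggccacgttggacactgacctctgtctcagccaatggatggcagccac
Calr (chr8:84846932-84847181, minus strand): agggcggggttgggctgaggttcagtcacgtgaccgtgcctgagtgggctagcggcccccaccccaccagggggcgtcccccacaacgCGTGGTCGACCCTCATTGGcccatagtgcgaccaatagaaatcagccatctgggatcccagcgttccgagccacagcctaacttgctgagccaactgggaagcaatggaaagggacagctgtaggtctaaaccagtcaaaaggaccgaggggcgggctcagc
Hsp90b1 (chr10:86705445-86705694, minus strand): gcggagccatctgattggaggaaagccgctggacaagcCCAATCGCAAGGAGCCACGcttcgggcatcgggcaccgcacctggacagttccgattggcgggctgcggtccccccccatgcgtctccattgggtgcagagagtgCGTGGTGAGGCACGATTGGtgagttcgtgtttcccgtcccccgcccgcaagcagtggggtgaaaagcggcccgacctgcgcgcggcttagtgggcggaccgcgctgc
The motif of Herpud1 and that of Calr lie on the other strand and begin 112 and 162 bases before the start site. Hsp90b1 holds the element at 212 bases before the start site and again, on the other strand, at 107.

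Set side by side, the arms differed in both count and size of change with LPS. The median log2 change was 1.82 over the 12 ATF4 arm members and -0.20 over the 18 ER arm members, against -0.06 over all tested genes; by the mean it was 1.65 and -0.06. For each library the arm was also averaged after subtracting each member's mean over the 9 libraries. The ATF4 arm average was -1.28, -1.17 and -0.91 in the untreated libraries, 0.50, 0.36 and 0.74 with LPS and 0.58, 0.48 and 0.70 with the inhibitor and LPS. It placed every library with LPS above every untreated one. The ER arm average was 0.07, -0.03 and -0.07 untreated, -0.31, 0.11 and -0.03 with LPS and 0.07, 0.15 and 0.03 with the inhibitor and LPS. These groups overlapped, and LPS replicate 1 was the lowest of the 9. Without Herpud1 and Syvn1 the ER arm average was 0.12 to 0.21 untreated, -0.18 to 0.02 with LPS and -0.08 to -0.02 with the inhibitor and LPS. On that average every untreated library was above every treated one. Leaving out Herpud1, the ER arm member that rose most, lowers the LPS averages relative to untreated by construction. The same holds for the averages with the inhibitor and LPS. There Herpud1 was 3.04 and Syvn1 2.12 higher than untreated, the latter not called.

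The scale matters more for the ER arm than for the ATF4 arm. Centring each library on abundant ribosomal protein genes, a choice made after seeing the data, shifted the all-gene median from -0.06 to 0.09, and rises made up 56.8% in place of 45.9% of all called genes. On that scale 3 ER arm members were called lower and 1 higher, with a median of -0.05. Of the 12196 tested genes, 2174 were called lower and 2860 higher there. Centring on all 85 ribosomal protein genes gave 4 lower and 1 higher, beside 2396 and 2569 of all tested genes. Without LPS replicate 1, 4 ER arm members were called higher and 7 lower. Over the fits that left out 1 library, 2271 to 2762 of all tested genes were called higher and 2564 to 3278 lower. Both centrings ended the calls of Hspa5, Canx, Dnajc3 and Sdf2l1, and that on abundant genes also the call of Hsp90b1. Leaving out LPS replicate 1 added calls of Syvn1 and Manf.

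**Figure D3:**
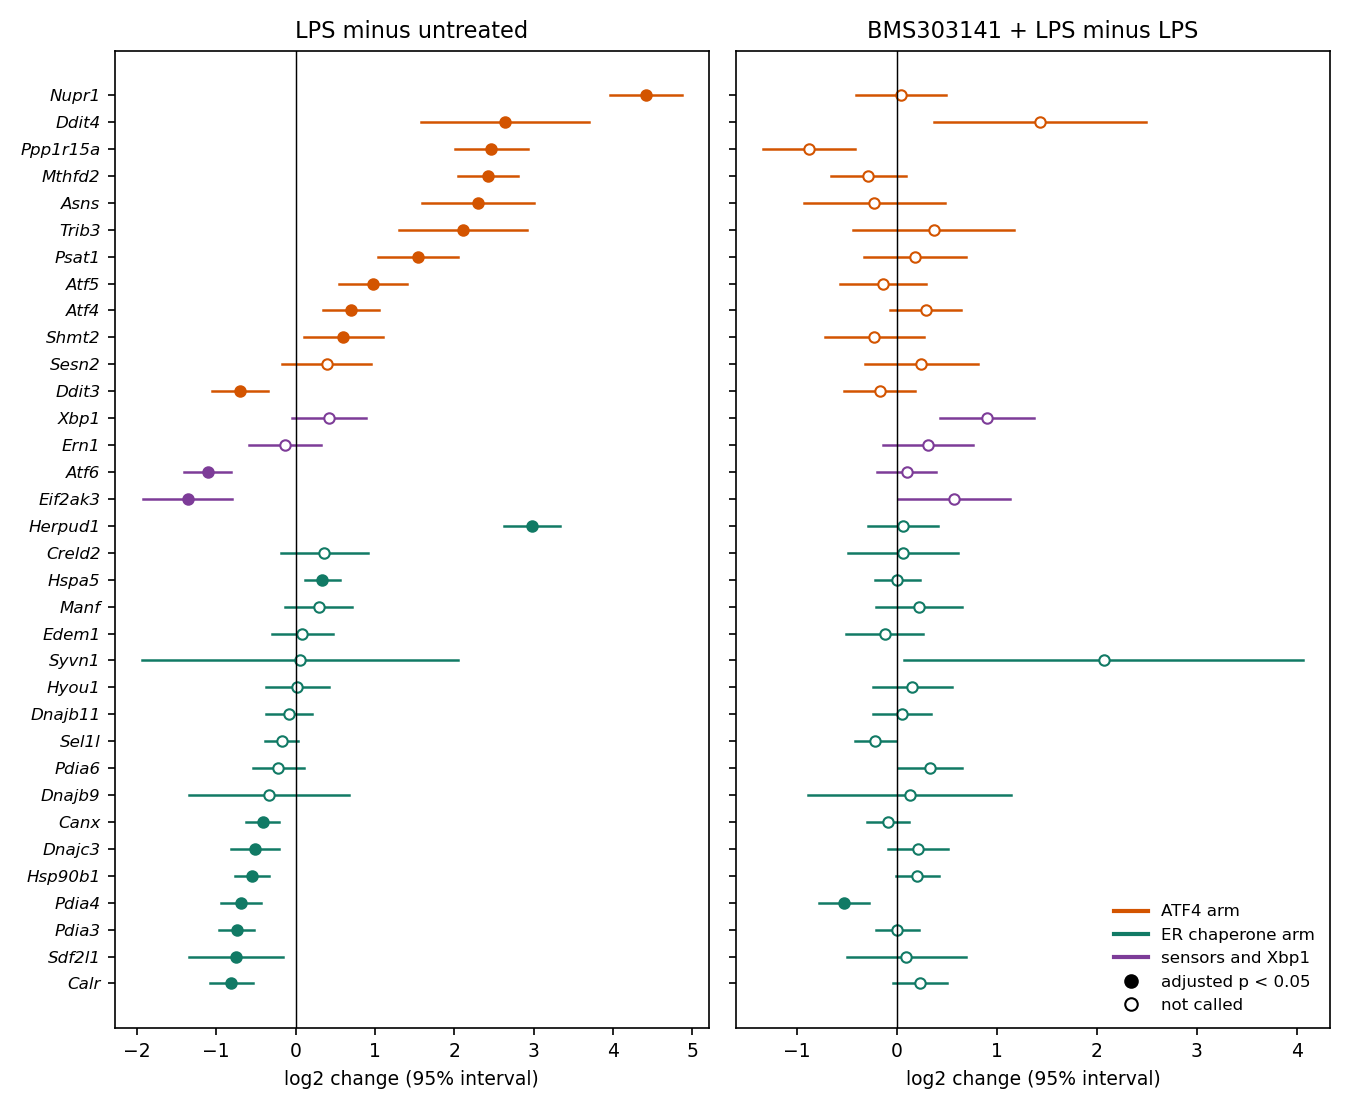
Log2 changes of the 34 members for LPS against untreated (left) and for BMS303141 with LPS against LPS (right), with 95% intervals on the x axis and members grouped by arm on the y axis. Filled points were called by limma. On the left the filled points of 10 ATF4 arm members lie to the right of 0 and those of 7 ER arm members to the left. On the right Pdia4 is the single filled point.

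**Figure D4:**
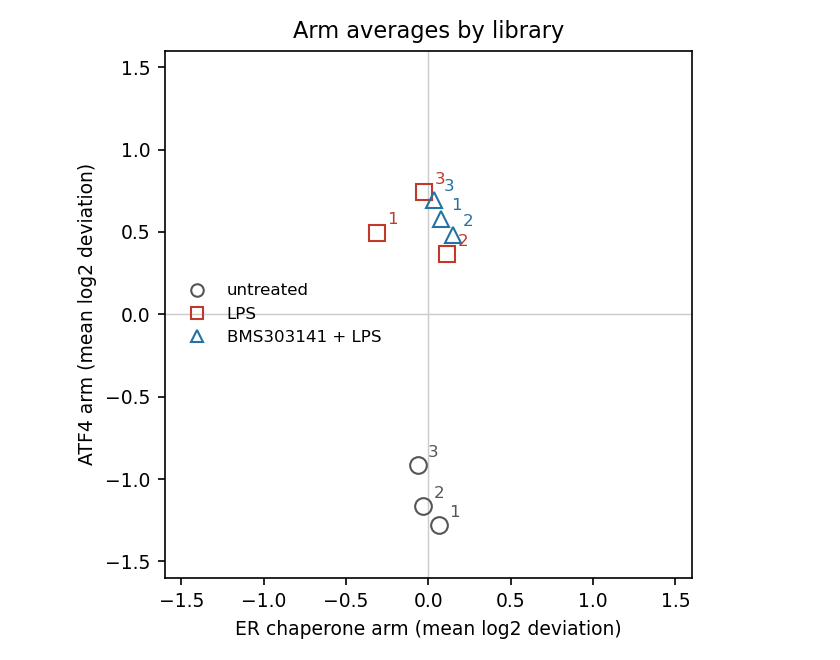
Average of each library over the ER arm (x axis) and over the ATF4 arm (y axis), as mean log2 deviation from each member's mean over the 9 libraries. Points are libraries numbered by replicate; untreated libraries lie between -1.28 and -0.91 on the y axis and the other 6 between 0.36 and 0.74, while the groups overlap on the x axis.

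The second comparison asked what BMS303141 did on top of LPS, and it shares the LPS libraries with the first comparison. Of the 34 members 1 was called lower with limma and none higher, beside 1.16% and 0.959% of all tested genes. At an unadjusted p under 0.05 there were 3 lower and 5 higher, beside 937 and 883 of the 12196 tested genes. Groups did not overlap for 4 members that were higher and 4 that were lower, beside 10.1% and 11.2% of all genes. The median log2 difference was -0.05 in the ATF4 arm and 0.08 in the ER arm, against -0.0043 over all genes, and no ATF4 arm member was called (2 at an unadjusted p under 0.05). Rises made up 45.3% of all called genes here, 33.1% after centring on abundant ribosomal protein genes and 32.5% after centring on all of them.

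Pdia4 was the called member. Its levels, given above, did not overlap between LPS and the inhibitor with LPS, and it fell by 0.53 on the log2 scale (SE 0.12, 95% interval -0.78 to -0.28; limma, adjusted p = 0.0313). The size held when 1 library was left out, at -0.56 to -0.50, but the call was lost in 7 of those 9 fits, with an adjusted p of up to 0.148. It was also lost with only the groups compared (limma, adjusted p = 0.0561) and with either ribosomal centring.

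Next to the threshold lay Xbp1 and Ppp1r15a, in opposite directions. Xbp1 was 0.90 higher with the inhibitor than with LPS alone (SE 0.22, 95% interval 0.43 to 1.37; limma, adjusted p = 0.0508), and all 3 libraries with the inhibitor were above all 3 with LPS. Ppp1r15a had a log2 difference of -0.88 (SE 0.21, 95% interval -1.34 to -0.42; limma, adjusted p = 0.0520), again without overlap. Both were called with the stricter filter of 10 CPM (limma, adjusted p = 0.0432 and 0.0425) and with library weights (0.00828 and 0.00727). With median centring or either ribosomal centring Ppp1r15a was called and Xbp1 was not. Over the alternative fits the adjusted p in limma reached 0.131 for Xbp1 and 0.122 for Ppp1r15a. The adjusted p ran from 0.0385 to 0.210 for Xbp1 and from 0.0388 to 0.231 for Ppp1r15a when 1 library was left out. Xbp1 was called without LPS replicate 2, and Ppp1r15a without LPS replicate 1 or untreated replicate 3. Over the same libraries the plasma cell marker Sdc1 differed by 0.67 (limma, adjusted p = 0.113) and Prdm1 by 0.14 (adjusted p = 0.772), and S100a8 rose by 2.29 (adjusted p = 0.00377). The other listed neutrophil marker, S100a9, differed by 0.49 and was not called. The dendritic cell marker Itgax fell by 1.68 (limma, adjusted p = 0.00587) and the mast cell marker Hdc fell by 0.70 (adjusted p = 0.0319). The part of these markers in the differences of Pdia4, Xbp1 and Ppp1r15a was not tested.

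Ddit4 was 1.43 higher with the inhibitor (95% interval 0.37 to 2.49; limma, adjusted p = 0.183), with no overlap between groups, and 0.84 higher without LPS replicate 1. Syvn1 was 2.07 higher with a wide interval (0.08 to 4.06; limma, adjusted p = 0.314), and 0.62 higher without LPS replicate 1. Eif2ak3 differed by 0.57 (95% interval 0.01 to 1.13; limma, adjusted p = 0.328), Pdia6 by 0.34 (0.02 to 0.65; adjusted p = 0.312) and Sel1l by -0.22 (-0.42 to -0.01; adjusted p = 0.309). For Nupr1 and Herpud1, the members with the largest LPS rises, the inhibitor difference had an interval that held 0. It was 0.05 for Nupr1 (95% interval -0.40 to 0.50) and 0.06 for Herpud1 (-0.29 to 0.42), small beside their LPS rises of 4.42 and 2.98. Mthfd2 differed by -0.29 (limma, adjusted p = 0.476), Asns by -0.23 (adjusted p = 0.787), Psat1 by 0.18 (adjusted p = 0.756), Trib3 by 0.37 (adjusted p = 0.687) and Atf4 by 0.29 (adjusted p = 0.441). For Hspa5 and Pdia3 the difference was 0.01 each, with intervals of -0.22 to 0.23 and -0.21 to 0.22.

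The third comparison set BMS303141 with LPS against untreated cells, and it shares both groups with the others. With limma 13 members were higher and 9 lower, beside 21.5% and 25.6% of all tested genes. Groups did not overlap for 15 members that were higher and 11 that were lower, beside 27.2% and 32.2% of all genes. In the ATF4 arm 9 were higher and 1 lower, with a median of 1.66, and in the ER arm 3 were higher and 6 lower, with a median of -0.12. Xbp1, not called with LPS alone, was 2.50-fold higher (log2 1.32, SE 0.22; limma, adjusted p = 0.000246). Pdia4 was 2.33-fold lower (log2 -1.22, SE 0.12; limma, adjusted p = 1.61e-06), and Sel1l changed by -0.39 (SE 0.09; limma, adjusted p = 0.00403). Ddit4 was 4.07 higher (SE 0.49; limma, adjusted p = 1.63e-05), against an untreated level of few reads.

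Nupr1 and Herpud1 stood 22.0-fold and 8.22-fold above untreated cells, and Ppp1r15a 3.01-fold (limma, adjusted p = 1.29e-09, 5.29e-09 and 4.15e-05). Atf4 was 1.98-fold higher (limma, adjusted p = 0.000264). Ddit3 was lower, with a log2 difference of -0.87 (limma, adjusted p = 0.000732). Atf6 remained lower, at -1.01 (limma, adjusted p = 5.05e-05), and Eif2ak3 too, at -0.79 (adjusted p = 0.0228), a call lost in 4 of the 9 fits that left out 1 library. Manf was higher by 0.51 (limma, adjusted p = 0.0492), a call lost in 6 of those fits.

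Wider lists were counted in the same fit. Of 40 other ATF4 targets 34 were tested, and 17 (50.0%) rose and 6 (17.6%) fell with LPS, beside 21.5% and 25.4% of all tested genes, with a median of 0.71. The smallest p values belonged to Slc7a11, the cystine transporter, at 7.65 (SE 0.25), Jdp2, a repressor of the AP-1 family, at 4.17 (SE 0.20), and Gadd45a, a growth arrest gene, at 3.16 (SE 0.16). Named after their values were seen, the 6 that fell were Atf3, a stress-induced transcription factor, at -1.78 (SE 0.14), Pck2 at -1.6, Got1 at -1.43, Map1lc3b at -1.34, Cebpg at -0.48 and Sars at -0.45. Of the 14 genes for eIF2, its exchange factor eIF2B, its other kinases and regulators, 6 (42.9%) rose and 4 (28.6%) fell, with a median of 0.01. The smallest p values belonged to Ppp1r15b, the constitutive relative of Ppp1r15a, at 1.66 (SE 0.12), Eif2s2, an eIF2 subunit, at 1.12 (SE 0.10), and Eif2ak2, the double-stranded RNA kinase PKR, at 1.19 (SE 0.15). Of 51 other ER folding, transport and degradation genes 47 were tested, and 6 (12.8%) rose and 10 (21.3%) fell, both below the shares of all tested genes, with a median of -0.08. The smallest p values there belonged to rises, in Ero1l, the oxidase that recharges disulfide isomerases, at 2.07 (SE 0.17), the J-domain gene Dnajc1 at 0.99 (SE 0.11) and the ubiquitin-conjugating enzyme gene Ube2j1 at 0.72 (SE 0.12). With the inhibitor on top of LPS, limma called none of the tested genes of these lists. At an unadjusted p under 0.05 there were 7 of 34, 2 of 14 and 3 of 47 in the same order, beside 1820 of 12196 tested genes, and the median of the ATF4 targets was 0.11. Slc7a11 differed there by 0.73 (limma, adjusted p = 0.175).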

How the data were processed

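Libraries of messenger RNA 3′ ends were made from 100 ng of total RNA with an oligo(dT)-primed QuantSeq forward kit and 16 PCR cycles, per the labels' protocols. Per the submitters' processing notes, the genome was GRCm38 (mm10), and edgeR, limma, MultiQC, featureCounts 1.5.1 and STAR 2.5.2b were used, with no role given. Annotation and strand setting were not given in the sources used here. As deposited, the authors' values are scores (log2 scale), read from their range and sums as log2 CPM, where CPM scales counts to a common total, after quantile normalisation over the 9 libraries, which hides any change common to most transcripts. For depth, the spacing of distinct values 5 to 40 of a library was used, its lowest value counting as no reads. PCR copies are not independent molecules, so depth bears on counting error only.

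Symbols came from GENCODE M21, in which 12181 of 12204 identifiers were found and 23 were not. Tested genes, 12196 in number, had a log2 CPM of 0 or more in 3 or more libraries; 8 did not. A group-means model over all libraries was fitted with limma 3.58.1 in R 4.3.3 (two-sided moderated test, variance trend on the mean). P-values were adjusted by Benjamini-Hochberg over the whole table, and calls needed an adjusted p under 0.05. The SE is the moderated standard error, and intervals are at 95%. The steps were tested on simulated data.

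The members and lists were chosen with earlier results of these data known. Values in every library were set to be given for members called with at least a 2-fold change and for the 2 highest-level members of each role. For each wider list the 3 called genes with the smallest p were to be named, for each cell type list its most abundant marker, and up to 3 promoters per arm with a motif were to be printed, by the size of the LPS change. Values of other members in every library were added after they were seen. Alternatives were a replicate block, other filters (none, or 10 CPM), other scalings (quantiles again, medians, ribosomal protein genes), another variance model, fits of the compared groups alone, library weights, a 2-fold minimum, other summaries of the arms, and leaving out each library. Centring on the 79 ribosomal protein genes of at least 10 CPM was added after the data were seen, as was a search for the second form of the ER stress response element.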

Additional observations from a re-analysis of the deposited data

How the results depend on the processing

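The LPS counts of the ATF4 arm were the steadiest, with 9 or 10 of 12 members called higher in every fit that left out a library and 7 under a 2-fold minimum. Of the 12196 tested genes, 2271 to 2762 were called higher in those fits and 1560 under the 2-fold minimum. Its median LPS change was 1.65 as a mean, 1.54 with the 10 CPM filter and 2.00 with library weights. The ER arm median with LPS was -0.38 without the degradation genes and -0.053 with abundant ribosomal centring, and its mean against untreated with the inhibitor was 0.095. For the LPS comparison the ER arm calls were 1 higher and 4 lower with ribosomal centring, 1 and 3 with abundant ribosomal centring, 1 higher with no mean trend, and 1 higher and 0 lower under a 2-fold minimum. Abundant ribosomal centring left 5 members and 0 ATF4 arm members called lower, and a 2-fold minimum 2 and 0. All genes called higher and lower numbered 2569 and 2396 with ribosomal centring and 2860 and 2174 with abundant ribosomal centring. Under a 2-fold minimum they numbered 1560 and 1749.

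For the inhibitor on top of LPS, members called lower numbered 2 with the stricter filter, median centring or library weights, and 0 without a mean trend, with only the groups compared or under a 2-fold minimum. Members called higher numbered 1 with the stricter filter or weights. All genes called lower for this comparison numbered 56 to 407 over the alternative fits, and those called higher 43 to 407. The ATF4 arm had 1 called lower (Ppp1r15a) with the stricter filter, median centring, either ribosomal centring or weights. The ER arm had 0 called lower (Pdia4 lost) with only the groups compared, a 2-fold minimum, no mean trend or either ribosomal centring. For the inhibitor and LPS against untreated, the ER arm had 1 called higher with ribosomal centring, no mean trend or a 2-fold minimum. The 2-fold minimum left 2 members, 0 ATF4 arm members and 1 ER arm member called lower. Under that minimum 1565 of the 12196 tested genes were called higher and 1755 lower, and ribosomal centring gave 2354 higher. The cause of these shifts was not tested, except that a 2-fold minimum drops smaller changes by construction.

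Replicate numbers are shared between groups, and the main model did not take them as pairs. Deviations of same-numbered libraries from their group means had correlations from -0.30 to 0.17. With 3 libraries per group the deviations sum to 0 and so depend on each other, and these correlations cannot show whether the numbers mark pairs. With a replicate block in the model, the inhibitor comparison had 1 member called higher (Xbp1), 1 ATF4 arm member called lower (Ppp1r15a) and 0 ER arm members called lower, Pdia4 standing at an adjusted p of 0.0680 in limma. The block also ended the LPS call of Shmt2 (limma, adjusted p = 0.0595) and gained a call of Sesn2 for the inhibitor with LPS against untreated (0.0343). In this balanced design the block leaves the fitted differences as they are by construction.

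Members that changed sign were not called in either fit. With ribosomal centring the inhibitor difference was -0.045 for Nupr1, -0.086 for Hspa5, -0.085 for Pdia3, -0.039 for Dnajb11, -0.029 for Herpud1 and -0.028 for Creld2. With abundant ribosomal centring it was -0.033, -0.074, -0.074, -0.028, -0.017 and -0.016 for the same genes in that order. On that scale Ern1 and Dnajb11 differed by 0.016 and 0.061 with LPS, and Dnajb11 and Edem1 by 0.033 and 0.027 between the inhibitor with LPS and untreated. With library weights the inhibitor difference was -0.010 for Sesn2, -0.034 for Pdia3 and -0.022 for Creld2, and Edem1 differed by 0.026 from untreated.

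Leaving out each library in turn gave, for LPS, 1 to 4 ER arm members called higher and an ER arm median of -0.38 to -0.11. For the inhibitor on top of LPS it gave 0 to 1 members called higher, 0 to 2 called lower, 0 to 1 in the ATF4 arm and 0 to 1 in the ER arm, and against untreated 1 to 4 ER arm members called higher. In these fits all genes called higher numbered 2271 to 2762 with LPS and 2153 to 2945 with the inhibitor and LPS against untreated. For the inhibitor on top of LPS, 27 to 140 of all genes were called higher and 35 to 178 lower. The LPS difference ranged from -0.062 to 0.18 for Edem1, -0.67 to 1.50 for Syvn1, -0.13 to 0.19 for Hyou1 and -0.90 to 0.031 for Dnajb9. The inhibitor difference ranged from -0.27 to 0.020 for Ddit3, -0.043 to 0.067 for Pdia3, -0.25 to 0.69 for Dnajb9, -0.017 to 0.16 for Creld2, -0.00068 to 0.37 for Manf, -0.10 to 0.19 for Nupr1, -0.044 to 0.10 for Hspa5, -0.25 to 0.023 for Edem1, -0.098 to 0.32 for Sdf2l1, -0.0083 to 0.13 for Dnajb11 and -0.025 to 0.15 for Herpud1. Against untreated, the range with the inhibitor and LPS was -0.093 to 0.050 for Dnajb11, -0.17 to 0.053 for Edem1 and -0.58 to 0.056 for Dnajb9. Depth limits Ddit4, Trib3, Syvn1 and Dnajb9 most, whose lowest libraries rest on a handful of reads.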
